A study of Mus musculus with 8 samples.

Results

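The genes of the interleukin-1 family described here are Il1a, Il1b, Il1rn and Il18, followed as regions of open chromatin in mouse macrophages. A region was taken when the summit of a peak, its highest point, lay within the RefSeq span of 1 of the 4 genes or within 50 kb of that span. Peaks that overlapped by at least 1 bp, from any of 8 libraries, were merged. This gave 56 of the 76751 regions in the data: 25 around Il1a and Il1b, 17 around Il1rn and 14 around Il18. The Il1a window held 14 and the Il1b window 17, with 6 in both, because the start sites of these neighbours lie 61.2 kb apart on chromosome 2. Regions around the 4 genes were taken by position only, not by the level of any peak. The genes themselves were chosen with earlier results of these data known.

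Chromatin accessibility was measured by ATAC-seq, in which the transposase Tn5 cuts open DNA and adds sequencing adapters, in macrophages grown from mouse bone marrow for 7 days. The cells were wild type (WT) or labelled Lamin-A KO (KO), and were left untreated or activated for 6 h with lipopolysaccharide (LPS), a component of the outer membrane of gram-negative bacteria that is sensed through TLR4. The 4 groups, untreated WT, LPS-treated WT, untreated KO and LPS-treated KO, had 2 libraries each, and all cells were frozen in 5% DMSO and thawed before the assay. The question was the effect of LPS on open chromatin and the part Lamin-A has in it. Mouse strain, sex, LPS dose and the targeted part of Lmna are not given in the labels. The source names of the LPS libraries carry the word untreated, and the titles and treatment fields, which say LPS, were followed. The labels number the replicates without saying that they came from separate animals, so every p-value below measures the spread between these libraries, which may be technical.

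Il1a and Il1b encode IL-1 alpha and IL-1 beta, which activate the same receptor, IL1R1, and start inflammatory signalling through MyD88 and NF-kappaB. Il1rn encodes the receptor antagonist, which occupies that receptor without signalling. Il18 encodes a related cytokine that acts through its own receptor, and both IL-1 beta and IL-18 are made as precursors that caspase-1 cuts after inflammasome assembly. In macrophages, resting cells hold little Il1a or Il1b RNA and LPS induces both, while Il18 precursor is present before stimulation.

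The start sites are shown because their regions behaved differently, as described below. Each sequence holds the 250 bases before a start site, 5′ to 3′ on the strand of the gene, from RefSeq on GRCm38.p6. Capitals mark matches to the motifs that were searched on both strands.
Il1a (chr2:129309973-129310222, minus strand): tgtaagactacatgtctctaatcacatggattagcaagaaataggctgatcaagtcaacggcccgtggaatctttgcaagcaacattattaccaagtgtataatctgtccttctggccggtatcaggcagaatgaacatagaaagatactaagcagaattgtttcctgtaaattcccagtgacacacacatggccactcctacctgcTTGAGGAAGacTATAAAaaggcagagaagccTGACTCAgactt
Il1b (chr2:129371140-129371389, minus strand): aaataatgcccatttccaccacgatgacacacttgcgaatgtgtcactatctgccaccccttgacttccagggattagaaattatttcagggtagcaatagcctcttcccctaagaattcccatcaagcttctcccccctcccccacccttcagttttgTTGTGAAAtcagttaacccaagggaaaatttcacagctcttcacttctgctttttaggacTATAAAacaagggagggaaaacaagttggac
Il1rn, upstream start (chr2:24336610-24336859, plus strand): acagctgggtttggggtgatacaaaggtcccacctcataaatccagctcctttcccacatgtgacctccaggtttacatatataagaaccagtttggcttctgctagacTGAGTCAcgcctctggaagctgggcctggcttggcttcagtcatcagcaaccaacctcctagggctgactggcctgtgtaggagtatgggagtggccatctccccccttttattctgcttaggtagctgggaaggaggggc
Il1rn, internal start (chr2:24345041-24345290, plus strand): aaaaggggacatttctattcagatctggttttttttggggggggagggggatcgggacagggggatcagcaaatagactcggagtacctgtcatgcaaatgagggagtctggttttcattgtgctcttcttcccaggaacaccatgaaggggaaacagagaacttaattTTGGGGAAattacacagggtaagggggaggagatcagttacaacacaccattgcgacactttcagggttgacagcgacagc
Il18 (chr9:50554450-50554699, plus strand): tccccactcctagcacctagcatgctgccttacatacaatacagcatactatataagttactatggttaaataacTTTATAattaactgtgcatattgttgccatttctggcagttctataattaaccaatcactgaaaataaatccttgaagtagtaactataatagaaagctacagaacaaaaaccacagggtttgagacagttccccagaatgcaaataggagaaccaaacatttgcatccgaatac
The motifs were AP-1 (TGANTCA), C/EBP (TTNNGNAA), the PU.1 core (AGGAAG), the interferon-stimulated response element or ISRE (GAAA, any 2 bases, GAAA), the TATA box (TATAAA) and the kappaB consensus. The Il1a promoter matched the TATA box 32 bases before the start, AP-1 12 bases before it, and C/EBP and the PU.1 core in overlapping letters 43 and 40 bases before it. The Il1b promoter matched the TATA box 31 bases and C/EBP 91 bases before the start. The upstream Il1rn start had AP-1 141 bases before it, and the internal Il1rn start printed above had C/EBP 81 bases before it. A second internal Il1rn start, whose window overlaps that one and is not printed, had C/EBP 161, 65 and 64 bases before it. The Il18 promoter had 1 match, to the TATA box on the opposite strand 175 bases before the start. Among 32841 promoter windows of the same length, 12.4% held the TATA box, 6.75% AP-1, 36.9% C/EBP, 29.5% the PU.1 core, 2.98% the ISRE and 3.90% the kappaB consensus. No ISRE or kappaB match was found in these 5 windows, which says only that those letters are not there. A match is a stretch of letters, not evidence of binding.

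The 8 peak lists held 44504 to 59750 peaks, and the KO lists were shorter than the WT lists. Of the regions held by either of 2 lists, both held 78.4 to 82.3% within a group and 58.7 to 75.5% between groups. Of 10 macrophage marker genes, all 10 carried a peak in all 8 libraries. Among markers of other cells, 1 of 6 for T and NK cells, 1 of 5 for B cells, 2 of 6 for neutrophils, 2 of 5 for erythroid cells and megakaryocytes, 4 of 5 for dendritic cells and 4 of 5 for stromal and endothelial cells did so. A peak list cannot show whether Lamin-A was absent, so the targeted gene was not checked here. In bulk samples, fewer cells with open DNA and less open DNA per cell cannot be told apart.

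A region in a library has a pileup, a local background and a fold enrichment. The pileup is the number of overlapping reads at the summit. The local background is the number of reads the peak caller expected there from the surrounding DNA. Fold enrichment, which the authors deposited, is (pileup + 1)/(local background + 1). Pileup and local background were recovered from the fold enrichment and the p-value of each peak, and the pileup came out whole, within 0.01, for 411171 of 411171 peaks. The lowest local background was 5.53 reads in each of the 8 lists. Where a list held several peaks in a region, the peak with the highest -log10 p was used. Absence from a list means that no peak passed there, and does not show that the DNA was closed.

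Across the 4 groups, LPS went with more called regions around these genes in WT cells. The 2 untreated WT libraries held 36 and 36 of the 56 regions and the 2 LPS-treated WT libraries 52 and 48. The untreated KO libraries held 34 and 34 and the LPS-treated KO libraries 40 and 39. LPS-treated WT libraries were thus the highest, and every LPS-treated library held more than every untreated one. The LPS-treated WT lists were also the longest, with 59750 and 55357 peaks. Called in all 8 libraries were 27 of the 56 regions (48.2%), beside 40.3% of all regions: 10 of 25 around Il1a and Il1b, 9 of 17 around Il1rn and 8 of 14 around Il18.

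**Figure D1:**
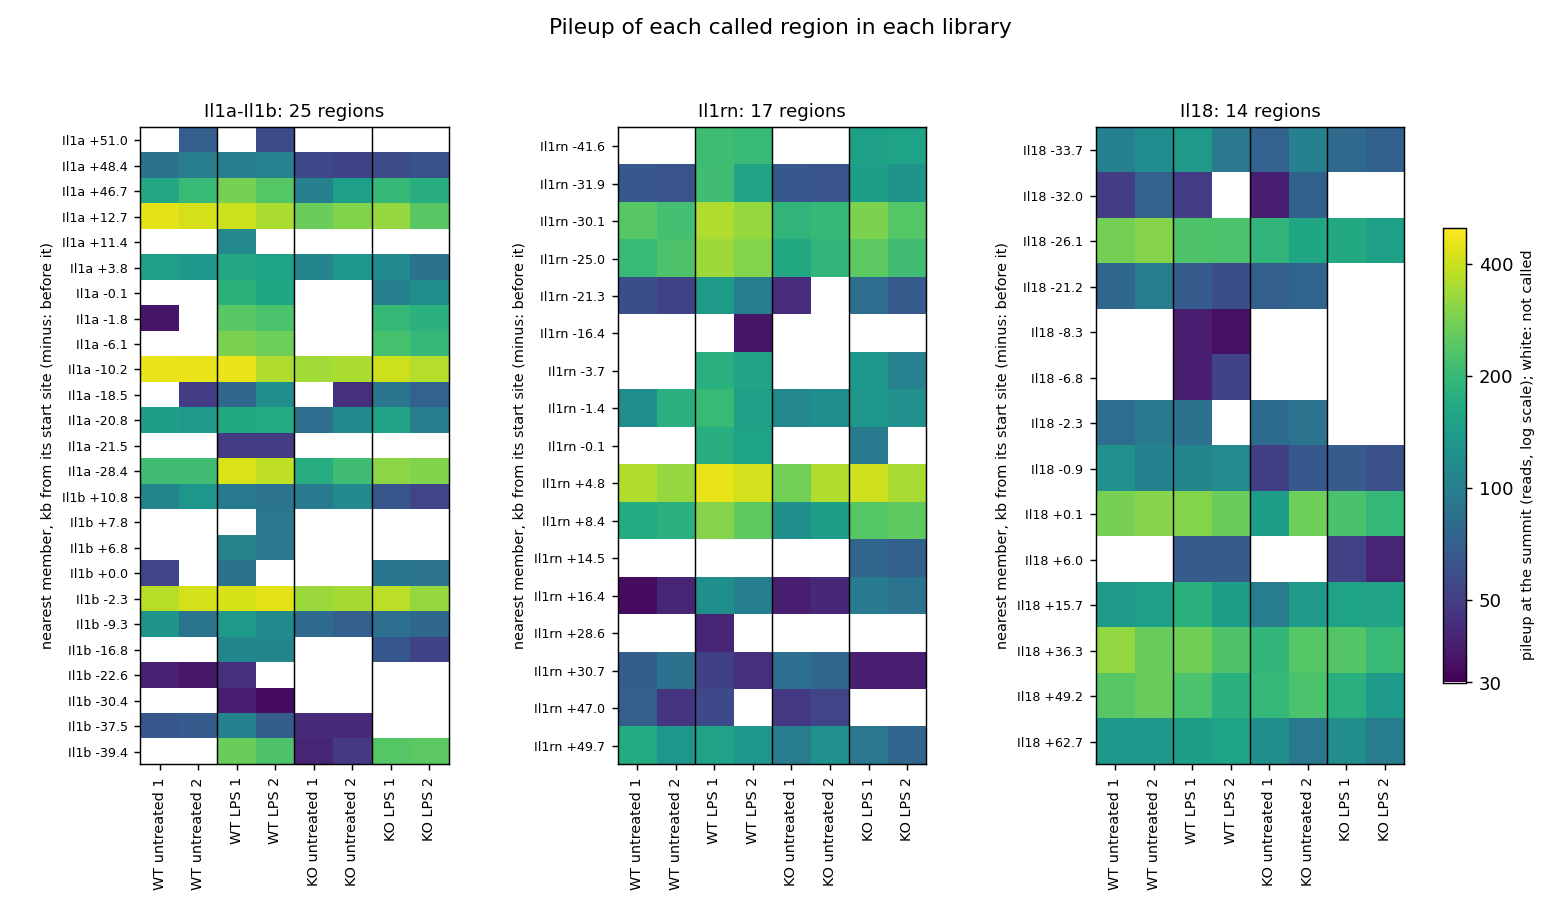
Pileup at the summit (reads, log colour scale) of the 56 regions in each of the 8 libraries, by locus in chromosome order. Rows are labelled with the nearest of the 4 genes and the distance from its start site in kb, and white cells were not called. The LPS columns have fewer white cells than the untreated columns around Il1a, Il1b and Il1rn, while around Il18 the LPS columns of KO have more of them (9 called regions each, against 11 untreated).

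Gained regions were those held by both libraries of one group and by neither of the other, and lost regions the reverse. With LPS in WT cells, 13 of the 56 regions were gained (23.2%), beside 10.1% of all regions, and 0 were lost, beside 6.02%. The 13 were 7 around Il1a and Il1b, 3 around Il1rn and 3 around Il18. With LPS in KO cells, 9 were gained (16.1%), beside 8.03%, and 5 were lost (8.93%), beside 5.56%. With every list trimmed to the length of the shortest, 47 regions were left. Of these, 10 were gained in WT (21.3%), beside 9.01%, and 8 in KO (17%), beside 8.78%. Lost were 1 in WT (2.13%), beside 7.52%, and 5 in KO (10.6%), beside 7.45%. Called in all 4 LPS libraries and no untreated library were 6 of the 56 (10.7%), beside 4.85%: 3 around Il1a and Il1b, 2 around Il1rn and 1 in Il18. Calls were not tested, since the smallest exact two-sided permutation p for 2 libraries against 2 is 0.333.

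Il1a showed its start site called only after LPS. The region over the start (chromosome 2, 129309835 to 129310178, summit 52 bp before the start) covered 206 of the 250 promoter bases printed above, with the TATA box, AP-1 and C/EBP matches. Its pileup was 182 and 156 reads in LPS-treated WT cells and 102 and 120 in LPS-treated KO cells, and it was not called in any untreated library. The values of the 2 genotypes under LPS did not overlap, with WT higher. Further upstream, the region 6.13 kb before the start (129315883 to 129316361) was also called in the 4 LPS libraries alone, with pileups of 288 and 270 in WT and 220 and 195 in KO. Between them, 1.84 kb before the start (129311521 to 129312013), pileups were 244 and 226 in LPS-treated WT cells and 198 and 181 in LPS-treated KO cells. That region also had a small peak of 35 reads in untreated WT replicate 1, so it was gained in KO and not in WT. In all 3 regions the LPS-treated KO values lay below the LPS-treated WT values, as the median pileup of all regions did.

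Other Il1a regions were open in all 8 libraries. The strongest, 10.2 kb before the start (129319871 to 129320572), had 461 and 456 reads in untreated WT, 459 and 356 in LPS-treated WT, 337 and 353 in untreated KO and 404 and 364 in LPS-treated KO. The treatment groups overlapped there in WT, while both KO libraries were higher with LPS. The region 12.7 kb after the start (129296970 to 129297902), beyond the end of Il1a and 0.046 kb from Ckap2l, had 444 and 418 reads in untreated WT and 405 and 355 with LPS, and 264 and 295 in untreated KO and 319 and 243 with LPS. Inside the gene, 3.76 kb after the start (129306004 to 129306432), pileups were 148 and 134 in untreated WT, 164 and 153 in LPS-treated WT, 108 and 131 in untreated KO and 114 and 86 in LPS-treated KO. None of these 3 passed the test for a pileup change with LPS in either genotype. After each library was centred on its median over all regions, the rise of the first in KO did (limma adjusted p = 0.0094).

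Between Il1a and Il1b, the region 28.4 kb before the Il1a start and 26.2 kb from the 3′ end of Il1b (129337940 to 129338732) had the largest rise in pileup with LPS among the 10 tested regions around the cytokine pair, in both genotypes. It had 211 and 212 reads in untreated WT, 428 and 384 in LPS-treated WT, 174 and 211 in untreated KO and 307 and 295 in LPS-treated KO. Every LPS library was above every untreated library. Limma was fitted across all 30960 regions called in all 8 libraries, with Benjamini-Hochberg adjustment. The log2 difference in pileup was 0.94 (SE 0.18, limma adjusted p = 3.47e-06) in WT and 0.65 (SE 0.18, limma adjusted p = 0.00193) in KO. Local background rose to a like extent there, by 0.943 in WT and 0.679 in KO. Mean fold enrichment was 16.7 untreated and 17.2 with LPS in WT, and 17 and 17.2 in KO. The region 46.7 kb after the Il1a start (129263034 to 129263657), nearer to Ckap2l than to Il1a, also rose in pileup. Its log2 difference was 0.51 in WT (SE 0.194, limma adjusted p = 0.033) and 0.61 in KO (SE 0.194, limma adjusted p = 0.00886). Its pileups were 163 and 203 in untreated WT, 282 and 238 in LPS-treated WT, 102 and 147 in untreated KO and 197 and 176 in LPS-treated KO. The WT call at this second region was lost on leaving out any 1 of the 4 WT libraries (limma adjusted p = 0.0621 to 0.384), and the KO call without untreated KO replicate 1 (0.245).

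Il1b differed from Il1a at its start site. The region over the Il1b start (129370935 to 129371341, summit 38 bp after the start) covered 202 of the 250 promoter bases, with both motif matches. It was called in untreated WT replicate 1 with 54 reads, in LPS-treated WT replicate 1 with 87 reads, and in both LPS-treated KO libraries with 90 and 88 reads. It was missing from untreated WT replicate 2, LPS-treated WT replicate 2 and both untreated KO libraries, so calls at the start site separated untreated from LPS only in KO cells. The local background there was 17.8 reads in untreated WT replicate 1, 39.1 in LPS-treated WT replicate 1, and 27.7 and 23.6 in LPS-treated KO cells. At 39.1 reads of background, 79 reads were needed to reach the lowest -log10 p in that list, against 23 at the lowest background. In untreated WT replicate 1, the same 2 numbers were 45 and 22. A missing call at this start therefore does not bound the pileup as closely after LPS as before it.

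Upstream of Il1b, 39.4 kb before the start (129410271 to 129410760), pileups reached 264 and 227 in LPS-treated WT cells and 239 and 246 in LPS-treated KO cells. Untreated KO libraries had 40 and 48 reads there, and neither untreated WT library had a call. The LPS groups overlapped between genotypes. This was the 1 region of the 56 gained in untreated KO against untreated WT, beside 0.735% of all regions. Its neighbour 37.5 kb before the start (129408483 to 129408809) had 65 and 68 reads in untreated WT, 103 and 69 in LPS-treated WT, 42 and 42 in untreated KO and no call in LPS-treated KO. The region 16.8 kb before the start (129387599 to 129388201) was called in the 4 LPS libraries alone, with 109 and 109 reads in WT and 65 and 53 in KO, so the WT values were higher.

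The strongest region of the Il1a and Il1b locus, by its mean rank within the lists, lay 2.34 kb before the Il1b start (129373100 to 129373768) and was open before LPS. Its pileups were 371 and 415 in untreated WT, 423 and 446 in LPS-treated WT, 326 and 341 in untreated KO and 379 and 321 in LPS-treated KO. The log2 difference with LPS was 0.15 in WT and 0.07 in KO, and neither passed the test. With libraries centred on their medians, the WT difference passed (limma adjusted p = 0.0155). Inside the intergenic stretch 3′ of Il1b, 10.8 kb after the start (129360056 to 129360993), pileups were 107 and 132 in untreated WT, 94 and 88 in LPS-treated WT, 96 and 114 in untreated KO and 64 and 54 in LPS-treated KO. The fall passed the test in KO (log2 difference -0.83, SE 0.228, limma adjusted p = 0.00179), and that call was lost without untreated KO replicate 2 (limma adjusted p = 0.0505). In WT the log2 difference was -0.39, and it did not pass.

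Weaker Il1b regions were called with LPS in WT alone. At the 3′ end of Il1b, 6.77 kb after the start (129363845 to 129364573), both LPS-treated WT libraries had a call with 106 and 92 reads, and no other library did. The region 30.4 kb before the start (129401373 to 129401713) had 37 and 33 reads in the same 2 libraries, and the one 21.5 kb before the Il1a start (129331372 to 129331608) had 49 and 49. Called in both LPS-treated WT libraries and no other were 5 of the 56 regions (8.93%), beside 2.40% of all regions: these 3 and 2 before Il18. With every list trimmed to the length of the shortest, 0 regions had this pattern. The same pattern in KO, described below, was found at 1 region (1.79%), beside 0.378%. After the same trimming, that region was held by only 1 LPS-treated KO library, and the Il1b start region had the pattern instead. The region 22.6 kb before the Il1b start (129393598 to 129393904) was the 1 region lost in untreated KO against untreated WT, beside 6.22% of all regions, with 39 and 36 reads in untreated WT and 44 in LPS-treated WT replicate 1.

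**Figure D2:**
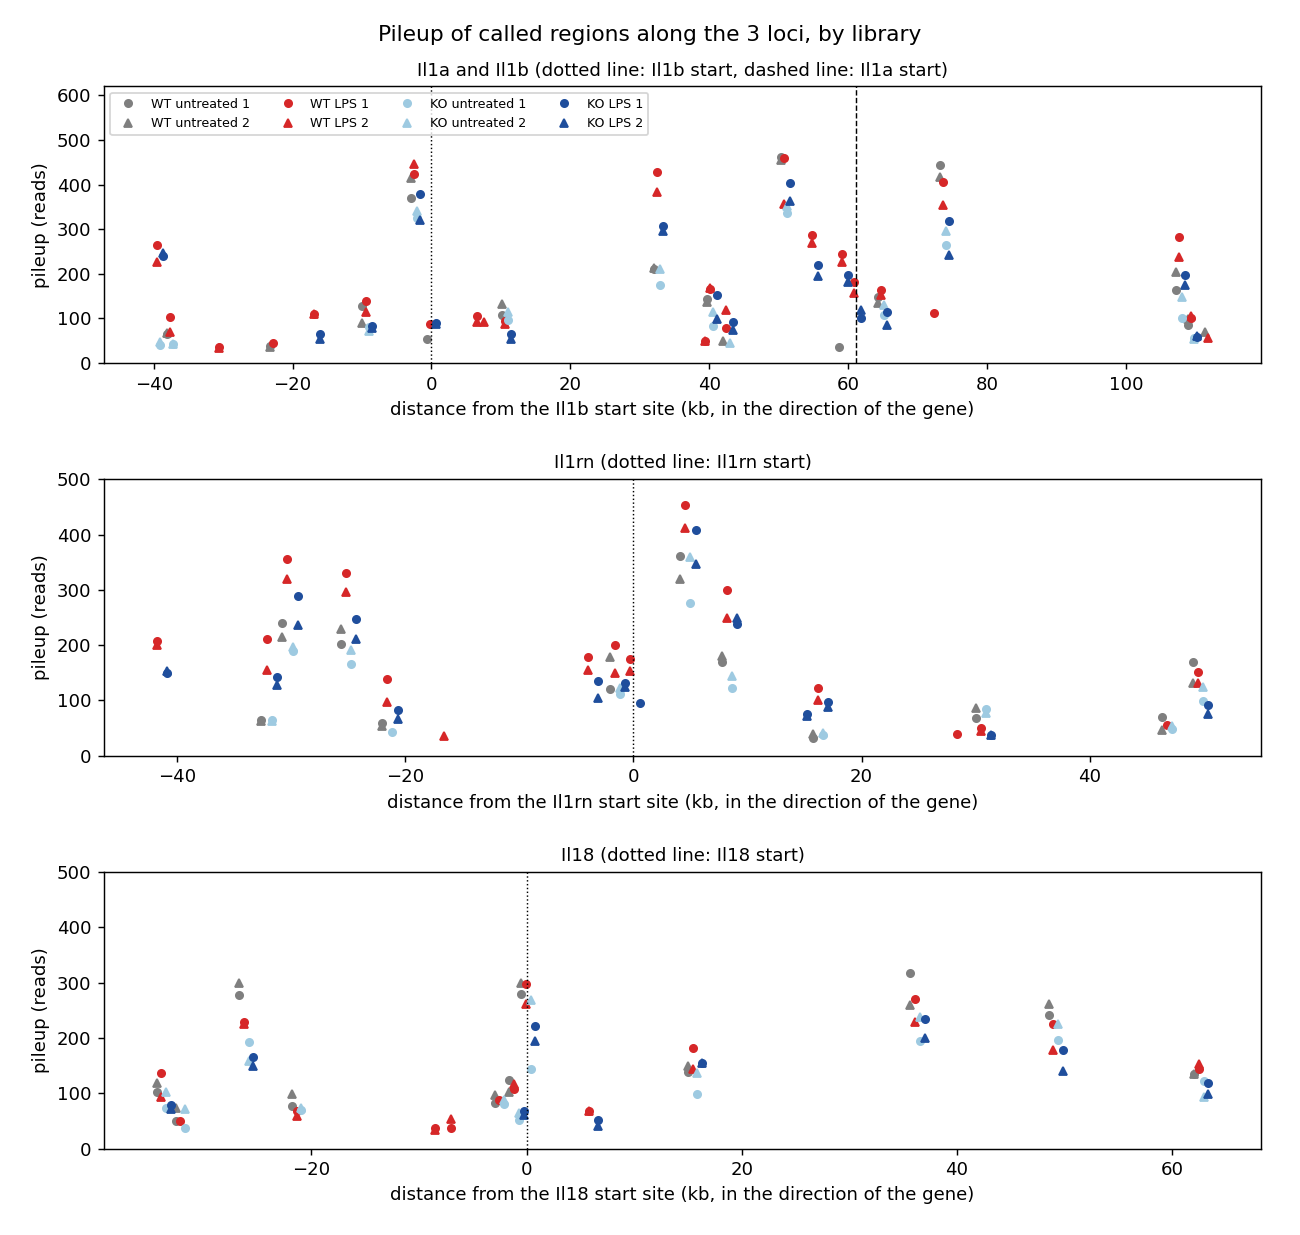
Pileup (reads) of each called region against its distance in kb from the Il1b, Il1rn or Il18 start site. Colours are the 4 groups, circles are replicate 1 and triangles replicate 2, and groups are shifted sideways by under 1 kb so that points can be told apart. The LPS points at 39.4 kb before Il1b lie above 200 reads, and at the Il18 start the treatment groups overlap.

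Il1rn, the antagonist, has an upstream start and a pair of close internal starts in the annotation, and they differed. The upstream start region (chromosome 2, 24336603 to 24336974, summit 58 bp before the start) covered all 250 bases printed for it. It had 175 and 153 reads in LPS-treated WT cells and 95 in LPS-treated KO replicate 1, and was called in no untreated library and not in LPS-treated KO replicate 2. The internal starts, 8.43 kb downstream (24345035 to 24345544), were open in all 8 libraries. Pileups there were 169 and 181 in untreated WT, 300 and 249 in LPS-treated WT, 123 and 145 in untreated KO and 238 and 249 in LPS-treated KO. The rise was 0.64 on the log2 scale in WT (SE 0.19, limma adjusted p = 0.00435) and 0.87 in KO (SE 0.19, limma adjusted p = 6.12e-05). The WT call was lost without untreated WT replicate 1 (limma adjusted p = 0.0952) or LPS-treated WT replicate 1 (0.118).

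A pair of distal Il1rn regions had the largest rises in pileup with LPS among the 27 tested regions, in both genotypes. The region 31.9 kb before the start (24304546 to 24305192) had 65 and 62 reads in untreated WT, 211 and 155 in LPS-treated WT, 65 and 63 in untreated KO and 143 and 128 in LPS-treated KO. The log2 difference was 1.51 in WT (SE 0.223, limma adjusted p = 6.93e-10) and 1.08 in KO (SE 0.223, limma adjusted p = 1.85e-05). The region 16.4 kb after the start and 1.76 kb beyond the gene (24352779 to 24353488) had 33 and 40 reads in untreated WT, 122 and 101 in LPS-treated WT, 38 and 41 in untreated KO and 97 and 88 in LPS-treated KO. There the log2 difference was 1.61 in WT (SE 0.242, limma adjusted p = 1.36e-09) and 1.23 in KO (SE 0.242, limma adjusted p = 6.54e-06). In both regions the pileups of LPS and untreated libraries did not overlap. Mean fold enrichment rose with LPS at the first, from 4.32 to 6.5 in WT and from 4.88 to 6.6 in KO. It fell at the second, from 4.39 to 3.52 in WT and from 5.17 to 4.15 in KO. At the second, local background rose more than pileup, by a log2 difference of 2.05 in WT and 1.66 in KO.

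Further Il1rn regions stood between Il1rn and Il1f10, the gene of IL-38. The region 41.6 kb before the Il1rn start and 1.14 kb from Il1f10 (24294565 to 24295602) was called in the 4 LPS libraries alone, with 208 and 200 reads in WT and 149 and 154 in KO. The region 3.74 kb before the start (24332867 to 24333339) had the same pattern, with 179 and 155 reads in WT and 135 and 105 in KO. The regions 30.1 and 24.96 kb before the start (24306449 to 24307053 and 24311615 to 24312178) rose in WT, with log2 differences of 0.57 (SE 0.182, limma adjusted p = 0.00913) and 0.54 (SE 0.185, limma adjusted p = 0.0156). In KO the differences of 0.44 and 0.36 did not pass, but did after each library was centred on its median (limma adjusted p = 5.92e-05 and 0.000533). The first WT call was lost in 3 and the second in 4 of the 4 fits that left out 1 WT library (limma adjusted p = 0.0549 to 0.185 and 0.0566 to 0.222). Pileups at the nearer of the 2 were 202 and 229 in untreated WT, 330 and 297 in LPS-treated WT, 166 and 191 in untreated KO and 247 and 212 in LPS-treated KO, so the treatments did not overlap in either genotype.

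The strongest Il1rn region lay inside the gene, 4.78 kb after the upstream start (24341357 to 24341948). Its pileups were 361 and 319 in untreated WT, 453 and 412 in LPS-treated WT, 276 and 359 in untreated KO and 408 and 347 in LPS-treated KO, and neither difference passed the test. After each library was centred on its median, both did (limma adjusted p = 8.09e-05 in WT and 0.000966 in KO). Next to Psd4, 30.7 kb after the start (24367019 to 24367797), pileup fell with LPS. It was 69 and 86 in untreated WT, 51 and 44 in LPS-treated WT, 84 and 77 in untreated KO and 38 and 37 in LPS-treated KO. The log2 difference was -0.70 in WT (SE 0.244, limma adjusted p = 0.0183) and -1.10 in KO (SE 0.244, limma adjusted p = 7.48e-05). The WT call was lost without untreated WT replicate 2 or LPS-treated WT replicate 2 (limma adjusted p = 0.254 and 0.171). At the 3′ end of Il1rn (24351204 to 24351724), a region was called in both LPS-treated KO libraries, with 76 and 72 reads, and in no other. Inside Psd4 (24383659 to 24383974), a region was lost with LPS in KO, with 48 and 54 reads in untreated KO. In WT it had 70 and 46 reads untreated and 56 in LPS replicate 1, and was not called in LPS replicate 2.

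Il18 had its start site called in all 8 libraries. The region over the start (chromosome 9, 50554563 to 50555132, summit 141 bp after the start) also lies in the span of Bco2 and covered 137 of the 250 bases printed. Pileups were 280 and 300 in untreated WT, 298 and 262 in LPS-treated WT, 143 and 269 in untreated KO and 222 and 195 in LPS-treated KO. Treatments overlapped in both genotypes, and the log2 differences with LPS of -0.05 in WT and 0.09 in KO did not pass the test. The other strong regions of the locus, 36.3 kb and 49.2 kb after the start (50590786 to 50591493, 5.30 kb from Sdhd, and 50603547 to 50604238, at the end of Timm8b), did not pass either. At the nearer of these 2, pileups were 317 and 260 in untreated WT, 271 and 229 in LPS-treated WT, 194 and 237 in untreated KO and 235 and 200 in LPS-treated KO. At the farther they were 241 and 261, 226 and 179, 196 and 226, and 178 and 140 in the same order. There each LPS library lay below both untreated libraries of its genotype. Inside Il18, 15.7 kb after the start (50570116 to 50570585), they were 139 and 149, 181 and 144, 98 and 137, and 154 and 155 in the same order. Treatments overlapped there in WT and not in KO. The KO log2 difference of 0.42 did not pass (limma adjusted p = 0.108), but did after each library was centred on its median (limma adjusted p = 0.00298).

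An intragenic Il18 region was called with LPS alone. It lay 6.00 kb after the start (50560584 to 50560899), also in the span of Tex12, and had 67 and 68 reads in LPS-treated WT and 52 and 40 in LPS-treated KO. Its local background was 5.53 reads, the lowest in the lists, in all 4. The regions 8.31 kb and 6.78 kb before the start (50546286 to 50546635 and 50547780 to 50548068, inside Bco2) were called in LPS-treated WT cells alone, with 37 and 34 and with 38 and 53 reads. In KO cells, 3 Il18 regions were lost with LPS. They lay 32.0 kb, 21.2 kb and 2.31 kb before the start (50522595 to 50522939, 50533338 to 50533680 and 50552227 to 50552572). Untreated KO pileups were 38 and 72, 70 and 74, and 81 and 88 reads. In WT cells all 3 were called in both untreated libraries, with 50 and 73, 77 and 99, and 82 and 97 reads. With LPS in WT, the second was called in both libraries, and the others in replicate 1 and not in replicate 2.

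Fold enrichment went the other way from pileup at many of these regions. Inside Il1a, 3.76 kb after the start, fold enrichment was 16.4 and 15.9 in untreated WT and 4.29 and 4.50 with LPS, while pileup was 148 and 134 before and 164 and 153 after. The local background there was 8.10 and 7.50 reads in untreated WT, 37.5 and 33.2 in LPS-treated WT, 6.64 and 7.26 in untreated KO and 19.4 and 20.1 in LPS-treated KO. Its log2 difference was 2.18 in WT (SE 0.0913, limma adjusted p = 0.000359) and 1.51 in KO (SE 0.0913, limma adjusted p = 0.00112). Fold enrichment divides by this value, so its log2 difference was -1.88 in WT where that of pileup was 0.17. Where a share of all regions is given for pileup, local background or fold enrichment, it is of the 30960 regions called in all 8 libraries. Of the 27 regions called in all 8 libraries, 11 in WT had a higher mean log2 pileup and a lower mean log2 fold enrichment with LPS, beside 10.6% of all regions, and 13 did in KO, beside 9.26%. The 11 were 5 around Il1a and Il1b, 6 around Il1rn and 0 around Il18.

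**Figure D3:**
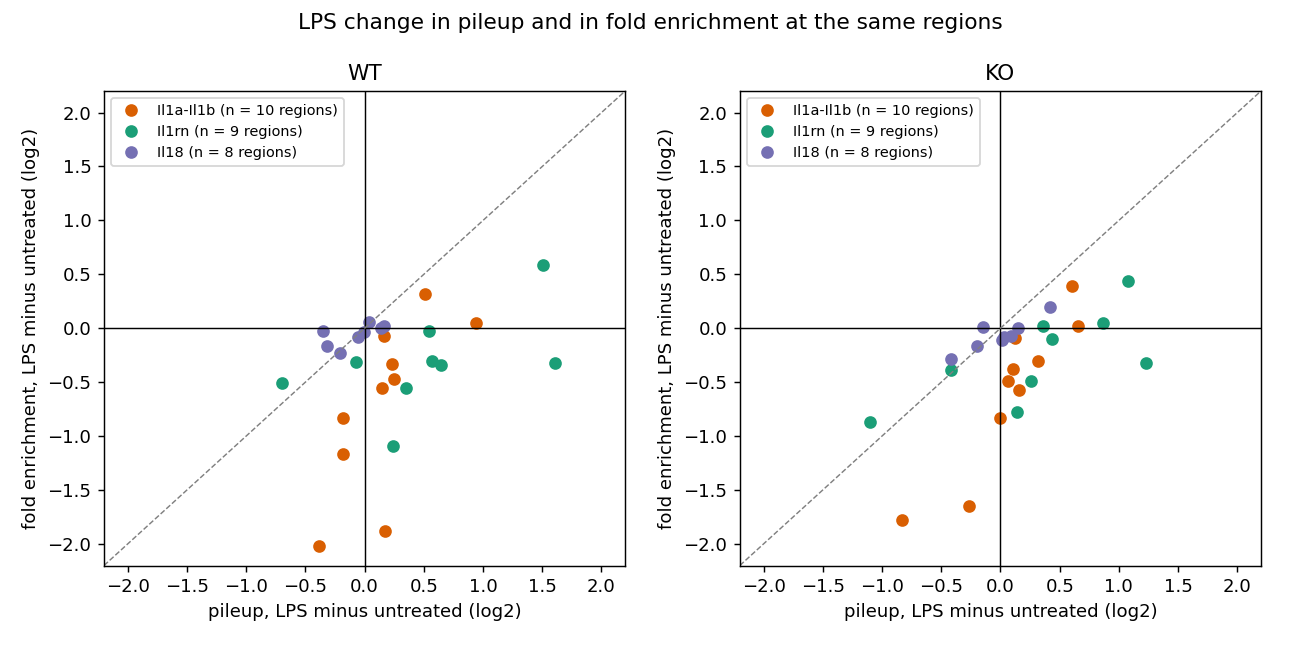
Difference in mean log2 fold enrichment (vertical axis) against difference in mean log2 pileup (horizontal axis), LPS minus untreated, for the 27 regions called in all 8 libraries, in WT (left) and KO (right). On the dashed line both change alike. Points of Il1a, Il1b and Il1rn lie below the line in both genotypes, except for the Il1rn region 30.7 kb after the start and, in KO, the one 49.7 kb after it, and points of Il18 lie close to it.

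The local background was higher with LPS around Il1a, Il1b and Il1rn and not around Il18. Over the 27 regions, limma called it higher with LPS at 15 in WT, beside 15.0% of all regions, and at 15 in KO, beside 12.5%. In WT these were 8 of 10 around Il1a and Il1b, 7 of 9 around Il1rn and 0 of 8 around Il18. The median ratio of LPS to untreated in WT was 1.69 around Il1a and Il1b, 1.91 around Il1rn and 1.02 around Il18, beside 0.974 over all regions. In KO the 3 ratios were 1.61, 1.60 and 1.09, beside 0.982. Windows of neighbouring regions overlap and contain the peaks themselves, so these regions are not independent of each other or of the pileup changes. Only at 1 region, 26.1 kb before Il18 and inside Pts (50528065 to 50528944), was the local background lower with LPS in WT (log2 difference -0.34, SE 0.0911, limma adjusted p = 0.035), beside 15.6% of all regions. That call was lost in 5 of 8 fits that left out 1 library (adjusted p = 0.0592 to 0.155). In KO it was lower at 0 of the 27, beside 11.4%, where 0 had an unadjusted p under 0.05 in that direction.

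At the Il1rn internal starts, the local background was 21.9 and 23.2 reads in untreated WT, 47.0 and 44.1 in LPS-treated WT, 17.6 and 20.9 in untreated KO and 35.3 and 33.6 in LPS-treated KO. The 3′ flank of Il1rn, 16.4 kb after the start, went from 6.58 and 8.54 to 31.0 and 31.0 in WT and from 6.62 and 7.04 to 22.6 and 20.5 in KO. The stretch 3′ of Il1b, 10.8 kb after its start, went from 7.32 and 7.92 to 25.4 and 26.1 in WT and from 6.46 and 6.80 to 14.4 and 13.3 in KO. In each of these 3 places every LPS library was above every untreated library. At the Il18 start the values were 17.5 and 18.9, 18.4 and 18.6 in WT and 10.8 and 13.7, 14.1 and 13.3 in KO.

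**Figure D4:**
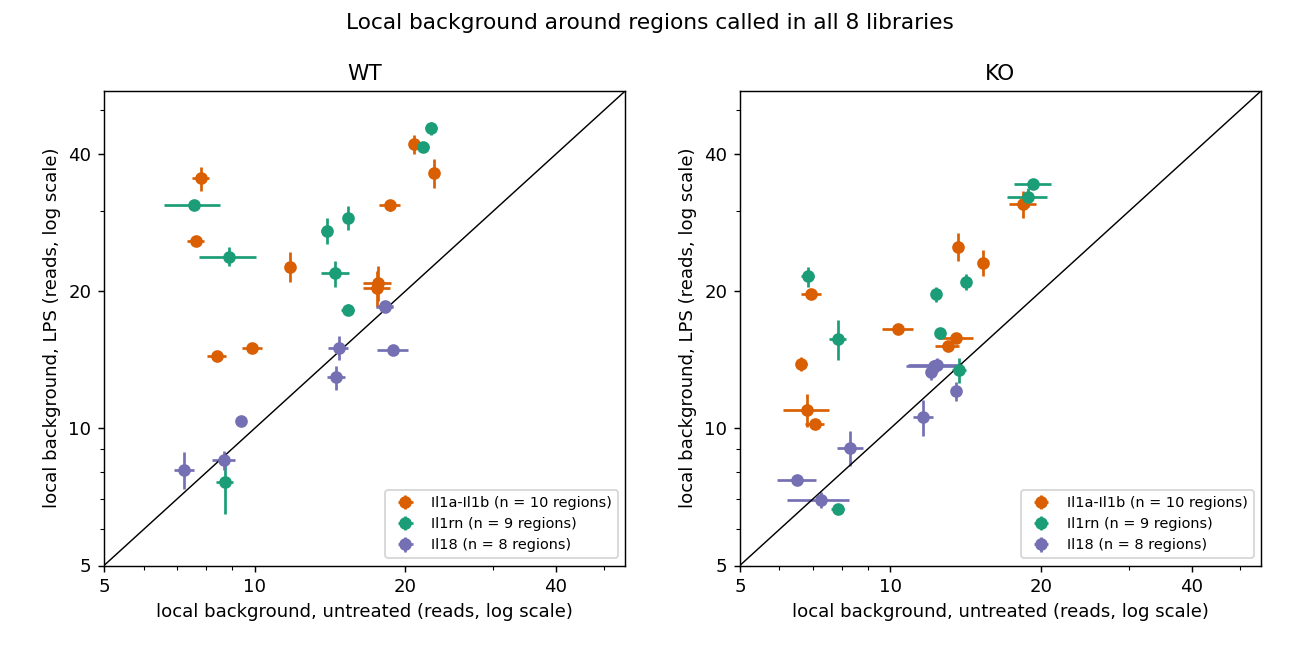
Local background (reads, log axes) of the 27 regions called in all 8 libraries, LPS against untreated, in WT (left) and KO (right). Points are means of 2 libraries and bars run from the lower to the higher library, and the diagonal marks equality. Points of Il1a and Il1b lie above the diagonal in both panels, as do most points of Il1rn, and points of Il18 lie near it.

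Pileup itself was called higher with LPS at 7 of the 27 regions in WT, beside 9.59% of all regions, and at 5 in KO, beside 9.85%. It was called lower at 1 in WT, beside 19.3%, and at 2 in KO, beside 21.4%. The median log2 difference over all regions was -0.18 in WT and -0.19 in KO, so pileup was lower with LPS across the lists. The median over the 27 was 0.17 in WT and 0.13 in KO. By locus in WT the median was 0.17 around Il1a and Il1b, 0.54 around Il1rn and -0.03 around Il18. The same regions relative to each library's median over all regions gave 9 higher in WT, beside 16.9% of all regions, and 11 in KO, beside 17.3%. In simulated counts for this WT comparison over the 30960 regions, the fit called 5.5% of 1.5-fold pileup changes and 90.5% of 2-fold changes. The simulation changed few of the regions and assumed the spread between libraries. Far more regions passed in the data, which makes the adjustment of p less strict than in the simulation. These shares therefore do not give the power of the test in these data.

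Fewer of the 56 regions were gained or lost between genotypes than with LPS. In untreated cells, KO against WT had 1 region gained and 1 lost, both given above. Under LPS, KO against WT had 1 gained (the 3′ end of Il1rn), beside 0.711%, and 7 lost (12.5%), beside 6.94%: 4 around Il1a and Il1b, 0 around Il1rn and 3 around Il18. With every list trimmed to 44504 peaks, the length of the shortest, 2 of the 47 regions left were lost (4.26%), beside 2.67% of all regions under the same trimming. Without LPS-treated WT replicate 2 the count of lost regions was 13. Pileup was called lower in KO at 6 of 27 regions without LPS, beside 21.3%, and at 9 with LPS, beside 21.7%. After each library was centred on its median over all regions, these counts were 1, beside 1.87%, and 0, beside 0.940%. The median log2 difference in pileup between genotypes over all regions was -0.33 without LPS and -0.35 with it, and over the 27 it was -0.34 and -0.44. Local background was called lower in KO at 7 of the 27 without LPS, beside 35.9%, and at 18 with LPS, beside 32.1%. After the same centring it was called lower at 3, beside 5.36%, and at 7, beside 5.48%.

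Whether LPS acted differently in the 2 genotypes was tested as an interaction in the same limma fit. None of the 27 regions passed for pileup (lowest adjusted p = 1, and 0 had an unadjusted p under 0.05), beside 0.00% of all regions in either direction. None passed for local background (lowest adjusted p = 0.18, and 3 had an unadjusted p under 0.05), beside 0.0226% lower. The Il1a region 3.76 kb after the start had a difference of -0.67 in log2 local background (SE 0.129, adjusted p = 0.244) and the region 3′ of Il1b one of -0.70 (SE 0.115, adjusted p = 0.18), so the rise was smaller in KO in both. After centring, these 2 passed, with adjusted p = 4.1e-05 and 0.000229, beside 0.333% of all regions, in a fit that took 1 spread for all regions of like level. A miss of the threshold does not show that the genotypes responded alike.

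Across the wider pathway, 34 genes for family ligands, receptors, adaptors, kinases and processing enzymes were counted in windows of the same kind. With LPS in WT, 24 of the 34 had at least 1 gained region, beside 45.3% of protein-coding genes with a region, and 13 had at least 1 lost region, beside 38.0%. In KO these counts were 16, beside 39.3%, and 16, beside 35.4%. Over the 331 distinct regions, 46 (13.9%) were gained and 16 (4.83%) lost in WT, beside 10.1% and 6.02% of all regions. In KO, 31 (9.37%) were gained and 20 (6.04%) lost, beside 8.03% and 5.56%. The 6 other ligand genes, which include Il33 and the Il36 genes, all had a gained region in WT, and 3 had one in KO. Il36a and Il36g had 3 gained regions each in WT and Il36b had 2, and none of these 3 genes had a gained region in KO. The windows of these 3 genes share regions, so their gains are not separate. The 10 regions of the Il1f10 window and the 6 of the Il36rn window were all Il1rn regions as well, so they are not further evidence. Of 8 receptor genes, 8 had a gained region in WT and 7 in KO. Several of these genes are neighbours, and their windows share regions: 29 of the 71 distinct receptor regions lay in more than 1 window, and 10 of the 24 distinct ligand regions did. Over distinct regions around the receptors, 14 of the 71 (19.7%) were gained in WT and 12 (16.9%) in KO. Around the ligands these were 10 of the 24 (41.7%) and 3 (12.5%). Of all regions, 10.1% were gained in WT and 8.03% in KO. The Il1f10 window, whose regions were all Il1rn regions, gave 3 of the 10 in WT and 2 of the 3 in KO. The most gained regions in WT were at Tab2, an adaptor of the kinase TAK1, with 7 of 15, at Irak3, an inhibitor of IL-1 receptor signalling, with 6 of 30, and at Il1r1, the receptor of both IL-1 cytokines, with 5 of 24. Under LPS, 26 of the 34 had a region lost in KO against WT, beside 44.6%, and 2 had one gained, beside 5.52%. Without LPS, 14 had one lost, beside 41.3%, and 1 had one gained, beside 5.32%. Over the distinct regions, 39 (11.8%) were lost in KO under LPS, beside 6.94% of all regions. Without LPS, 23 (6.95%) were lost, beside 6.22%. The KO lists were shorter, and the pathway counts were not repeated with lists trimmed to equal length.

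The windows ended in stretches with few calls. The outermost regions kept were 40.6 kb from Il1a (2 libraries, highest pileup 70), 39.3 kb from Il1b (6 libraries, 264), 41.6 and 35.1 kb from Il1rn (4 libraries, 208, and 8 libraries, 169) and 33.7 and 35.6 kb from Il18 (8 libraries each, 137 and 153). The nearest regions outside were 72.4 kb from Il1a (1 library, highest pileup 33), 67.8 kb from Il1b (4 libraries, 56), 121.6 and 54.4 kb from Il1rn (2 libraries, 35, and 1 library, 41) and 54.1 and 77.8 kb from Il18 (4 libraries, 77, and 8 libraries, 202).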

How the data were processed

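ATAC-seq peak lists of 8 libraries (4 groups, 2 replicates each) were used. BWA 0.7.12, MACS2 and mm10 are named in the submitters' processing notes, in no stated role, and how the lists were filtered is not given in the sources used here. Each library had its own list, so peaks were not called on pooled replicates. The fold enrichment in the deposited lists is a ratio to the local background of the same library. The authors also deposited −log10 p and −log10 q values, and a score that is the −log10 p on another scale. The authors gave the summit of each peak as an offset in bp from its start.

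The 4 genes, the pathway list and the markers were chosen with earlier results of these data known. Regions were merged at an overlap of at least 1 bp. Named regions are the 3 strongest of each locus by mean percentile of −log10 p, those at gene ends and those gained or lost in any comparison. Those with a pileup change that passed the test were singled out after their values were seen. So were the Il1a region 3.76 kb after its start, the region 10.8 kb after the Il1b start, the Il18 region 15.7 kb after its start and the Pts region. A whole pileup and its local background were recovered from fold and p, assuming a Poisson upper tail. Their log2 values at the 30960 regions called in all 8 libraries were tested with limma 3.58.1 (R 4.3.3, mean-variance trend, 4 residual degrees of freedom, adjusted p threshold 0.05). This test was added after the peak lists had been seen. For pileup, limma gave all regions of like level the same spread. The recovery and the test were tested on simulated data. Python 3.11.15 with pandas 2.3.3 and scipy 1.17.1 did the rest. RefSeq spans of GRCm38.p6, the same assembly, carry no exons here, so exon or intron is not stated. Read totals per library were not used here, and the precision of a single pileup is limited by its read number.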

Additional observations from a re-analysis of the deposited data

Results flagged for a closer look

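The number of regions called in the Il18 window moved in opposite directions with LPS in the 2 genotypes. The mean over libraries was higher with LPS by 2 regions in WT cells (11 and 11 untreated, 14 and 12 with LPS) and lower by a change of -2 in KO cells (11 and 11 untreated, 9 and 9 with LPS). Every LPS library lay above both untreated libraries in WT and below both in KO. With every list trimmed to the length of the shortest, the counts were 11 and 11 untreated and 11 and 11 with LPS in WT, and 11 and 11 untreated and 9 and 9 with LPS in KO, so the difference in WT was gone. Whether these changes differ between WT and KO was not tested. The KO lists were shorter than the WT lists. Groups of 2 libraries are too small to look for an outlying library.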

How the results depend on the processing

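Counts are of 56 regions (47 after trimming the lists or at the higher −log10 p, 54 without either LPS-treated WT library), or of the 27 tested with limma. Trimming all lists to equal numbers of peaks gave 1 lost with LPS in WT, 2 gained and 0 lost in untreated KO against WT, and 2 lost in LPS-treated KO against WT. Requiring peaks to cover 50% of a region gave 1 lost with LPS in WT and 0 gained in untreated KO against WT. A −log10 p of at least 20 gave 3 lost in LPS-treated KO against WT. Leaving out each library in turn gave 0 to 4 lost in WT with LPS (4 without LPS-treated WT replicate 1), 1 to 3 lost in untreated KO against WT, and 1 to 2 gained and 7 to 13 lost in LPS-treated KO against WT. The limma alternatives were chosen after seeing the data. Leaving out 1 library gave 3 to 7 regions with higher pileup with LPS in WT (3 without LPS-treated or untreated WT replicate 1, 4 without untreated WT replicate 2), 0 to 1 lower in WT and 1 to 3 lower in KO. For KO against WT it gave 0 to 9 (untreated) and 0 to 17 (LPS) with lower pileup, and 0 to 7 and 0 to 14 with lower local background. The LPS counts were 0 without LPS-treated KO replicate 2 or LPS-treated WT replicate 1. Where 1 library was left in a group, it was assumed to vary like the others. Centring each library gave 11 with higher pileup with LPS in KO, and 1 and 0 with lower pileup in KO against WT (untreated, LPS). It gave 3 and 7 with lower local background in KO against WT, beside 5.36% and 5.48% of all regions. For local background in untreated KO against WT, all 27 differences were negative before centring, and 17 were positive and 10 negative after it. Among those that had passed, 1 turned sign, 2.34 kb before Il1b (0.0127 against -0.28). With the replicate number as a block, pileup was lower in LPS-treated KO against WT at 4 regions, beside 14.5% of all regions. Local background was lower at 2, beside 0.572%. The replicate numbers are not said to pair libraries, and replicate differences correlated between groups by -0.127 to 0.0842 only. Higher local background with LPS was called at 14 to 15 regions in WT and 13 to 15 in KO on leaving out each library. The cause of these shifts was not tested. A region with under about 22 reads cannot be seen in these lists, and more are needed where the local background is high.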

Other observations

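Over all 13887 protein-coding genes with at least 5 regions in a window of the same kind, the count of called regions per library was compared with that of each of the 4 genes over the 8 libraries, as a description with no test. Windows of adjacent genes share regions, and all counts share the length of their list. Il1a was most like Txnrd1, which encodes a thioredoxin reductase (Pearson r = 0.992), and Adgrg6, an adhesion receptor gene (0.989). Il1b was most like Unc50 and Coa5, which are neighbours (0.993 each). Il1rn had the same pattern as Tstd2 (r = 1), which had 5 calls fewer than Il1rn in each of the 8 libraries, and was next most like Rnf182 (0.991). Il18 was most like Mad2l2 and Fbxo6 (0.989 each).

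Processing genes of the pathway list gave a further set of values. Of 8 genes for inflammasome parts, inflammatory caspases and gasdermin D, 5 had a gained region with LPS in WT, beside 45.3% of protein-coding genes with a region, and 1 in KO, beside 39.3%. Over their 88 distinct regions, 5 (5.68%) were gained in WT and 4 (4.55%) in KO, beside 10.1% and 8.03% of all regions. Nlrp3, the sensor that starts caspase-1 activation in LPS-primed macrophages, had 1 gained and 2 lost of 13 regions in WT and 0 gained and 0 lost in KO. Casp1, which cuts both precursors, had 1 gained of 8 in WT and 0 in KO. Aim2, a sensor of cytosolic DNA, had 2 gained of 26 in WT and 4 in KO.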
